A study of Saccharomyces cerevisiae with 16 samples.

Results

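YBL574 is a laboratory strain of budding yeast (Saccharomyces cerevisiae) in which histones H3 and H4 are supplied from a plasmid, and it was set here against the strain labelled WT. Cells of both were grown in YPD, a rich medium, and total RNA was sequenced. The libraries were chosen by their labels alone: YBL574 replicates 2 and 3, each with 2 technical libraries of 1 RNA extraction, and WT replicates 2 and 3, each with 1 library. These are 4 of the 12 biological samples and 6 of the 16 libraries of the series. Of the 7125 genes in the table, 6505 had an RPKM (a read density per kilobase of gene, divided by library depth) of at least 1 in at least 2 of the 4 replicates and were compared. Of these, 80 passed only through YBL574 and 52 only through WT.

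The study's strain list describes the YBL wild type as a MATa strain in the S288C background with his3Δ200, leu2Δ1, ura3-52, trp1Δ63, lys2-128δ and a Ty912 35-lacZ::his4 insertion. Both chromosomal H3-H4 gene pairs are replaced in it, HHT1-HHF1 by LEU2 and HHT2-HHF2 by HIS3. The list names a plasmid with HHT2-HHF2 and TRP1 for that strain, whereas a legend of the study gives YBL574 a plasmid with HHF1-HHT1. The labels give WT no genotype. YBL574 and WT therefore differ in histone gene copies, in markers and in any other part of their backgrounds at once, and these cannot be told apart in a comparison of both strains. The labels do not say whether both strains were grown, prepared or sequenced together, so batch and strain cannot be separated either. Nothing in the labels says whether replicates came from separate cultures. The p-values rest on a spread between replicates that is shared over all 6 groups of the series, and this spread may be technical.

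In S288C yeast each core histone is encoded by a pair of genes. HHT1 and HHT2 encode the same H3 protein, HHF1 and HHF2 the same H4 protein, and each H3 gene shares a divergent promoter with an H4 gene. Histone genes are transcribed mainly around S phase, and their total output is kept in balance by feedback. In haploid strains that live on plasmid-borne histone genes, every cell must hold the plasmid, and its selection marker is transcribed with it. Auxotrophic markers such as HIS3, LEU2, URA3 and TRP1 are themselves enzymes of amino acid or pyrimidine synthesis.

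The fitted read totals were between 11864068 and 18078554 for the 4 YBL574 libraries, and 12172927 and 12351091 for the WT libraries. The floor was set at 3 reads, which for a 1 kb gene means 0.17 to 0.25 RPKM in these libraries and covers counting error only. The second technical libraries of YBL574 stood apart from the first. The SD of the log2 difference between libraries of 1 extraction was 0.43 in replicate 2 and 0.43 in replicate 3, wider than the 0.28 and 0.30 between replicates of the same library set. Across genes, that difference was alike in both replicates (Pearson's r = 0.71 over 6505 genes, which are not independent replicates). The eighth of genes with the highest WT levels had medians 0.27 and 0.29 higher in the second library on the log2 scale. WT has no second library, so where the call of a named gene differed between the first and the second libraries of YBL574, both values are given below.

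More genes were lower than higher in YBL574 on the values as deposited. The median log2 fold change of the 6505 genes, on the log2(RPKM + 1) scale, was -0.38, and it was 0.0028 after scaling by the median of gene ratios and 0.087 after scaling to the upper quartile. The shift was not the same at all levels, with a median of 0.056 in the eighth of genes with the lowest WT levels, -0.52 in the 6th eighth and -0.067 in the highest. The transcripts of the mitochondrial chromosome made up 12.7% to 16.1% of RPKM times length in the YBL574 libraries, against 6.56% and 5.30% in the WT libraries. The part of that share in the median shift was not tested. The factors of the median-of-ratios scaling were 0.86 and 0.85 in YBL574. They were 0.84 and 0.81 in H3T11A, the other strain with second technical libraries, and 1.01 to 1.16 in all other groups, WT among them. Whether the shift goes with the strain or with a batch was not tested. On the values as deposited, 419 genes rose in YBL574 at an adjusted p (limma, Benjamini-Hochberg) under 0.05, which is 6.44% of the genes tested, and 3278 fell, which is 50.4%. With median-of-ratios scaling 1186 genes (18.2%) were higher and 1219 (18.7%) lower, and with upper-quartile scaling 1456 were higher and 868 lower. All 419 genes were higher under each of the 3 scalings (6.44%), and 868 (13.3%) were lower under each. Changes of at least 2-fold that passed the test numbered 156 higher (2.4%) and 708 lower (10.9%) as deposited. Fold changes below are on the values as deposited, and a call that held under all 3 scalings is said to be scaling-independent. Both alternative scalings raised YBL574 against WT, so a rise as deposited could hardly lose its call to them. Scaling-independence is therefore a strict criterion for decreases only.

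**Figure D1:**
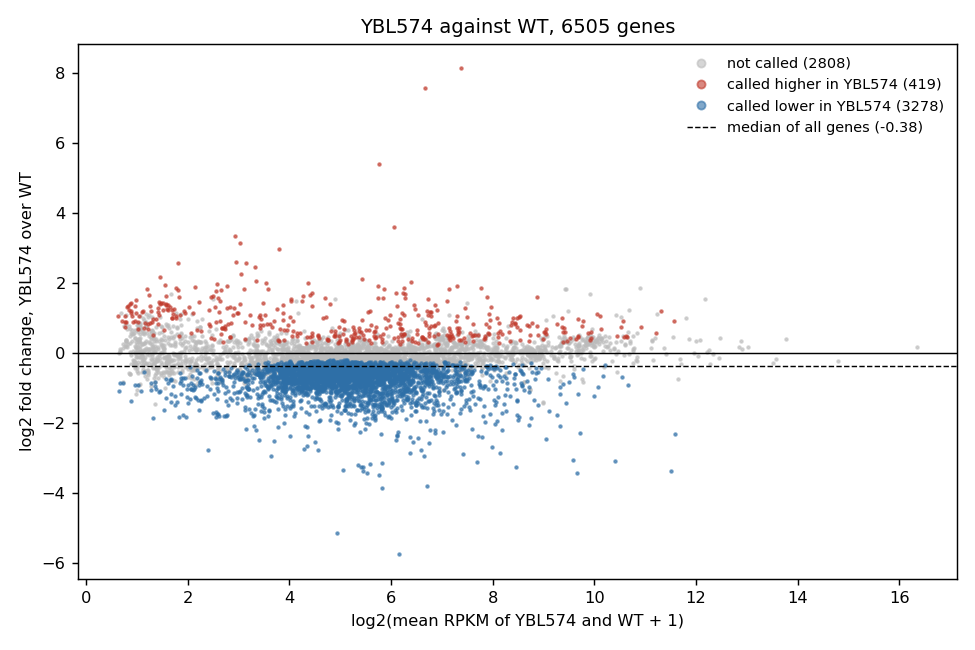
Log2 fold change of YBL574 over WT (vertical axis) against the log2 of mean RPKM plus 1 (horizontal axis) for 6505 genes, 1 point each. The bulk of the cloud lies near the dashed median of -0.38, with 419 genes higher (red) and 3278 lower (blue) at an adjusted p under 0.05.

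The mating type of both strains was read from their transcripts. MFA2, which encodes a-factor, was at 1146 and 1215 RPKM in YBL574 and 899 and 936 RPKM in WT. MF(ALPHA)1, which encodes alpha-factor, was at 3.96 and 5.21 RPKM in YBL574 and 2.64 and 2.44 RPKM in WT. By MFA2 and MF(ALPHA)1, both strains carried the transcript pattern of MATa cells. The low MF(ALPHA)1 level was still higher in YBL574 under all scalings (0.65 ± 0.14, adjusted p = 0.0038). The samples labelled control had 1490 and 1379 RPKM of MF(ALPHA)1 and were not used as a second wild type. MATALPHA2 set them apart less, at 19.9 and 22.6 RPKM in YBL574, 28.8 and 29.3 RPKM in WT and 57.2 and 62.0 RPKM in control. STE2, the alpha-factor receptor of a cells, was at 493 and 515 RPKM in YBL574 and 245 and 237 RPKM in WT, a scaling-independent rise of 1.06 ± 0.10 (log2, SE) with an adjusted p of 9.0e-05 in limma. STE6 and BAR1 also rose under all scalings, whereas MFA1, MFA2, AGA2 and ASG7 did not pass the test on the values as deposited.

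The H3 and H4 genes are shown as sequence because their copies differ by few bases and reads can be shared between them. HHT1 lies on chromosome II, at 256331-256741, and HHT2 on chromosome XIV, at 575640-576050 (assembly R64, the sacCer3 build of the files). Their coding sequences of 411 bases differ at 28 positions, and the longest run without a difference is 74 bases. HHF1 (chromosome II, 255373-255684) and HHF2 (chromosome XIV, 576727-577038) differ at 8 of 312 positions, with a longest identical run of 80 bases. How the authors' counting treated reads that match both copies is not given in the sources used here, so the levels of the copies are uncertain. The first bases of both H3 genes follow, read 5′ to 3′ from the start codon, with the 8 positions that differ in capitals.
HHT1: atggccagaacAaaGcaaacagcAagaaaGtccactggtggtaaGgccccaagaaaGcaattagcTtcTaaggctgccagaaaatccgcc
HHT2: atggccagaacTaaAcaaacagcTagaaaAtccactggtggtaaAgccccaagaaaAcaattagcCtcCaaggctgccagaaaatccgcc

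The gene pair that dominated H3 and H4 transcripts was not the same in YBL574 and WT. HHT1 was at 1087 and 1200 RPKM in YBL574 and 612 and 589 RPKM in WT (log2 fold change 0.93 ± 0.15, adjusted p = 0.0010). HHF1 was at 1037 and 1111 RPKM in YBL574 and 563 and 535 RPKM in WT (0.97 ± 0.15, adjusted p = 0.00067). The chromosome II pair was thus higher in YBL574 by nearly 2-fold. HHT2 was at 225 and 261 RPKM in YBL574 and 1052 and 1009 RPKM in WT (-2.08 ± 0.15, adjusted p = 4.4e-05). HHF2 was at 150 and 172 RPKM in YBL574 and 705 and 649 RPKM in WT (-2.07 ± 0.15, adjusted p = 4.4e-05). All 4 genes had replicates that did not overlap between the strains, and all 4 calls were scaling-independent and held in the first and in the second technical libraries. In the H3T11A strain, which the study made from YBL574 by a change of plasmid, HHT1 stood at 6.78 and 9.78 RPKM and HHT2 at 918 and 1159 RPKM. The HHT2 level of YBL574 was thus 21.2% of its HHT1 level, and the HHT1 level of H3T11A was 0.797% of its HHT2 level. The H4 pair of H3T11A lay less far apart, with HHF1 at 71.6 and 54.2 RPKM and HHF2 at 599 and 497 RPKM.

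The other histone genes moved less. The H2A gene HTA2 was at 191 and 197 RPKM in YBL574 and 122 and 115 RPKM in WT (0.71 ± 0.16, adjusted p = 0.0045). Its change was 0.36 with the first technical libraries alone, where it missed the threshold, and 0.99 with the second, where it passed. HTA1 (H2A), HTB1 and HTB2 (H2B), the H2A variant gene HTZ1 and the linker histone gene HHO1 had log2 fold changes between -0.15 and 0.36, and none passed the test on the values as deposited. HTB1 passed with the second technical libraries (0.60) and not with the first (0.061). CSE4, the centromeric H3 variant, was at 24.6 and 24.8 RPKM in YBL574 and 36.8 and 37.8 RPKM in WT (-0.58 ± 0.10, adjusted p = 0.0016), a call that was lost with median-of-ratios scaling, where its change was -0.18. Summed over the 11 histone genes, RPKM came to 4436 and 4845 in YBL574 and 4677 and 4454 in WT, and these ranges overlapped.

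**Figure D2:**
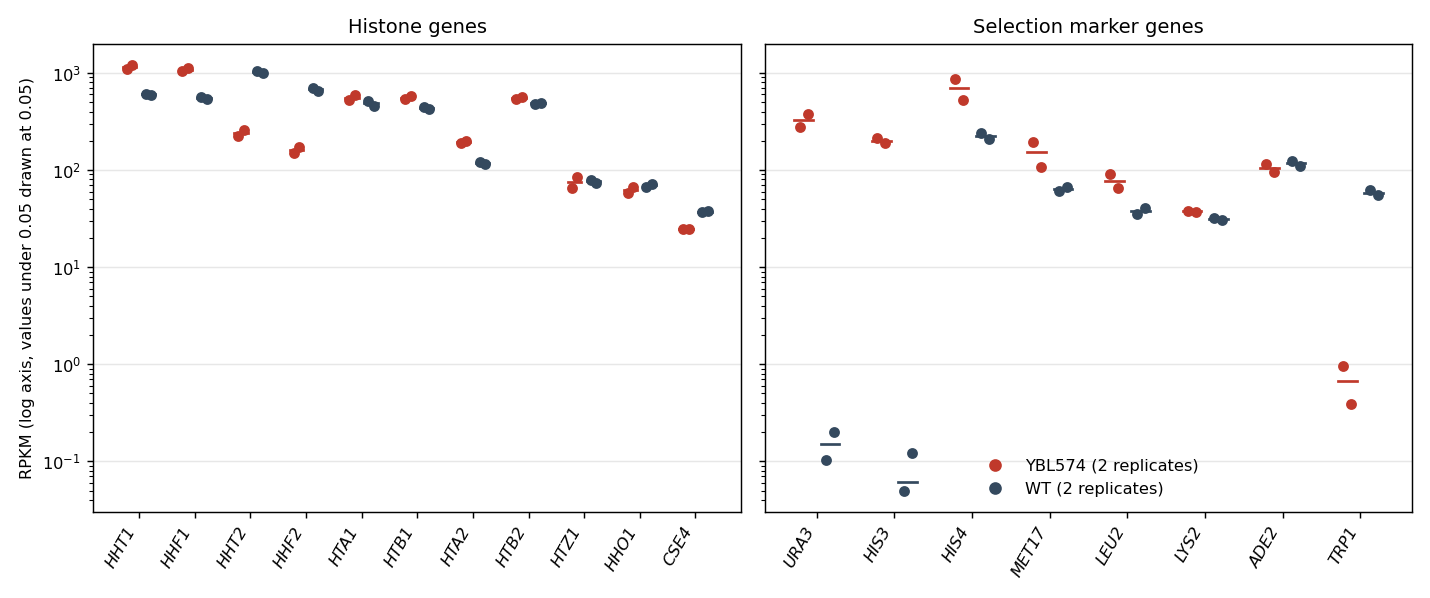
RPKM (log axis) of 11 histone genes (left) and 8 selection marker genes (right) in the 2 replicates of YBL574 (red, left of each pair) and of WT (blue, right of each pair), where each point is a biological replicate and each line the mean. HHT2 and HHF2 sit below WT while HHT1 and HHF1 sit above it, and URA3 and HIS3 (near 0 in WT) and TRP1 (near 0 in YBL574) differ by more than 10-fold.

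Selection marker transcripts separated the strains most widely. URA3, the orotidine phosphate decarboxylase of pyrimidine synthesis, was at 278 and 379 RPKM in YBL574 and 0.10 and 0.20 RPKM in WT, where it had 1 and 2 reads. Set against the floor of 3 reads in a WT library, URA3 was at least 1071-fold higher in YBL574. HIS3, an enzyme of histidine synthesis, was at 213 and 189 RPKM in YBL574 and 0 and 0.12 RPKM in WT, where it had 0 and 1 reads, and it was at least 541-fold higher in YBL574. TRP1, an enzyme of tryptophan synthesis, had the opposite order, with 0.96 and 0.39 RPKM in YBL574 (3 to 12 reads per library) and 61.9 and 54.7 RPKM in WT (-5.16 ± 0.15, adjusted p = 1.9e-07). The strain list names TRP1 as the marker of the HHT2-HHF2 plasmid of the YBL wild type, and these YBL574 samples held few reads from it. Which plasmid they carried was not tested. H3T11A carried TRP1 at 97.1 and 99.2 RPKM and URA3 at 85.4 and 99.6 RPKM.

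The remaining markers were detected in both strains. HIS4, a multifunctional enzyme of histidine synthesis, was at 876 and 531 RPKM in YBL574 and 238 and 210 RPKM in WT (1.60 ± 0.22, adjusted p = 0.00042). The strain list gives the YBL wild type an insertion at this locus (Ty912 35-lacZ::his4), and its part in the HIS4 level was not tested. LEU2, an enzyme of leucine synthesis, was at 90.5 and 65.2 RPKM in YBL574 and 34.9 and 40.6 RPKM in WT (1.01 ± 0.17, adjusted p = 0.0012). MET17, which fixes sulfide into homocysteine, was at 195 and 109 RPKM in YBL574 and 60.5 and 66.6 RPKM in WT (1.19 ± 0.25, adjusted p = 0.0035), with changes of 0.71 in the first and 1.54 in the second technical libraries. The replicates of both strains did not overlap for these 3 genes, whose calls were scaling-independent. LYS2 changed by 0.25 ± 0.08 (adjusted p = 0.023), a call lost in 3 of 4 fits without 1 replicate (adjusted p up to 0.14), and ADE2 by -0.15 ± 0.26 (adjusted p = 0.64). The WT strain therefore had reads from LEU2, MET17, TRP1, LYS2 and ADE2 and at most 2 reads in a library from URA3 or HIS3.

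Genes next to the histone and marker loci were examined, since a deletion or an inserted fragment can reach beyond the gene it is named for. Of 27 neighbouring genes tested, 1 was higher and 8 were lower under all scalings, against 6.44% and 13.3% of all genes. The 8 were CRF1 (beside HTA1), TBF1 and NAN1 (HHO1), LPX2 (CSE4), RRP7 (HIS4), SOK1 (TRP1), and RAD16 and TKL2 (LYS2). The strain list names no change at HTA1, HHO1 or CSE4 in the YBL wild type. The gene that rose was TIM9, a mitochondrial import chaperone beside URA3 on chromosome V (117211-117474), at 137 and 197 RPKM in YBL574 and 70.3 and 69.3 RPKM in WT (1.22 ± 0.21, adjusted p = 0.0011). Beside LYS2 on chromosome II, the DNA repair gene RAD16 was at 22.6 and 19.97 RPKM in YBL574 and 80.2 and 79.5 RPKM in WT (-1.86 ± 0.09, adjusted p = 7.8e-06), and TKL2, on its other side, was among the genes with the largest decreases. SOK1, beside TRP1 on chromosome IV, was at 32.7 and 32.8 RPKM in YBL574 and 83.5 and 78.6 RPKM in WT (-1.28 ± 0.11, adjusted p = 6.3e-05). FLR1 and IPP1 beside HHT1-HHF1, SIW14 and KTR5 beside HHT2-HHF2, and MRM1 and DED1 beside HIS3 had log2 fold changes between -0.44 and -0.026, and none of their calls was scaling-independent. SIW14 (-0.049 in the first technical libraries and -0.58 in the second) and KTR5 (-0.053 and -0.41) passed the test in the second alone, and DED1 (-0.39 and -0.037) in the first alone. YOR203W, whose systematic name falls between those of HIS3 (YOR202W) and DED1 (YOR204W), led all other genes, with 109 and 101 RPKM in YBL574 and 1.16 and 1.83 RPKM in WT (5.42 ± 0.21, adjusted p = 1.6e-06).

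No nuclear chromosome stood apart as a whole. The median log2 fold change of the 16 nuclear chromosomes ran from -0.45 (chromosome VIII) to -0.29 (chromosome III). The 39 tested genes of the mitochondrial chromosome had a median of 1.202. Of them 13 rose (33.3%, against 6.44% of all genes) and none fell under any scaling.

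Apart from histones, markers and YOR203W, the genes with the largest increases included several of low level. FRE7, a ferric and cupric reductase gene of the low-copper response, was at 112 and 130 RPKM in YBL574 and 8.69 and 9.56 RPKM in WT (3.59 ± 0.60, adjusted p = 0.0011). HUG1, an inhibitor of ribonucleotide reductase that is induced by DNA damage, was at 69.7 and 67.3 RPKM in YBL574 and 11.5 and 19.6 RPKM in WT (2.12 ± 0.28, adjusted p = 0.00036). DDI2, a cyanamide hydratase gene, was at 11.6 and 14.1 RPKM in YBL574 and 0.24 and 0.48 RPKM in WT (3.34 ± 0.23, adjusted p = 4.4e-05), and its near-identical copy DDI3 had 13.1 and 14.0 RPKM in YBL574 and 0.49 and 0.84 RPKM in WT. Reads can be shared between these copies, and the rise of each is uncertain. DDI2 and DDI3 passed the filter only through YBL574. The replicates of both strains did not overlap for any of these 4 genes, because this was part of how they were chosen.

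PAU24 (a seripauperin), CSS1, DPA10, YLR154W-B and 3 tRNA genes completed the 12 largest increases. PAU24 was at 23.2 and 24.0 RPKM in YBL574 and 2.26 and 2.01 RPKM in WT, and CSS1 at 15.5 and 12.9 RPKM in YBL574 and 1.46 and 1.68 RPKM in WT. YLR154W-B was at 197 and 74.1 RPKM in YBL574 and 34.4 and 24.5 RPKM in WT, but its change was -0.93 with the first technical libraries alone and 2.88 with the second. The mitochondrial tRNA genes tP(UGG)Q and tK(UUU)Q had at most 27 reads in any of these libraries, and neither passed the test with the first technical libraries alone (1.35 for tP(UGG)Q and 1.39 for tK(UUU)Q, against 3.21 and 3.05 with the second). Some calls were lost when 1 replicate was left out, with an adjusted p of up to 0.17 for tK(UUU)Q, 0.10 for tG(GCC)P1, 0.082 for DPA10 and 0.078 for YLR154W-B.

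**Figure D3:**
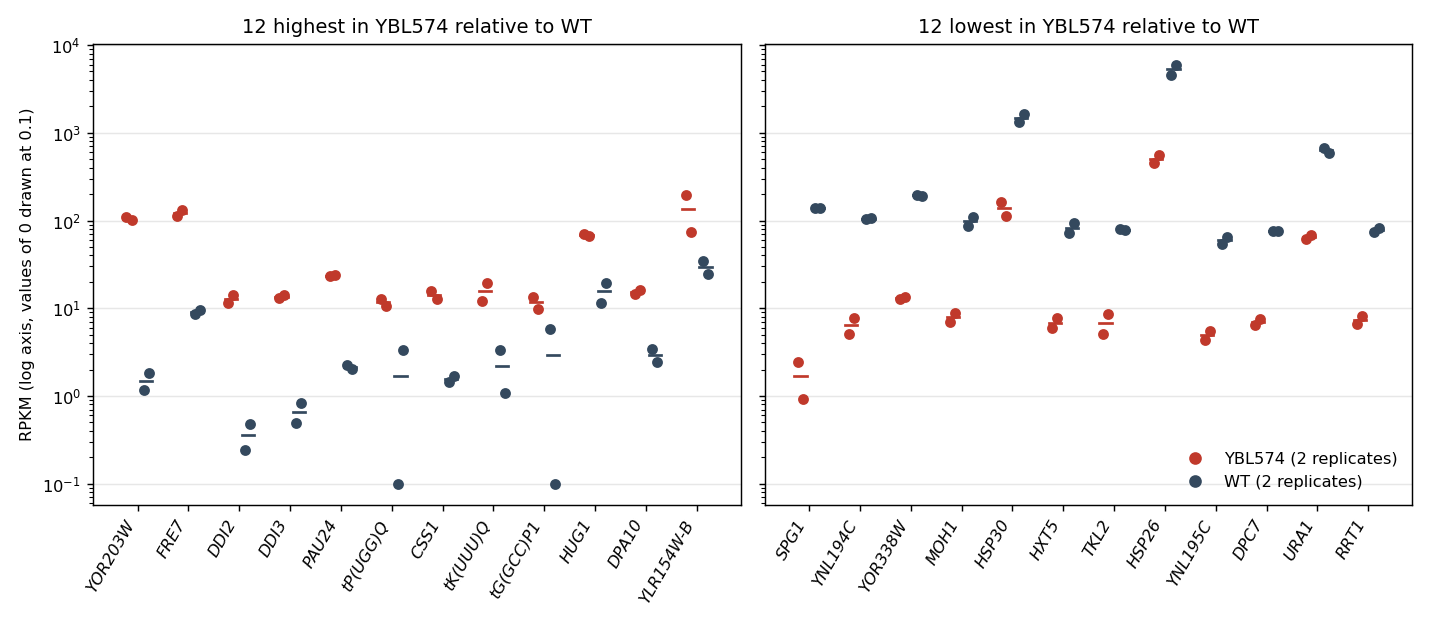
RPKM (log axis) of the 12 genes with the largest increases (left) and the 12 with the largest decreases (right) in YBL574 (red, left of each pair) relative to WT (blue, right of each pair), where each point is a biological replicate and each line the mean. SPG1 lies near 1 RPKM in YBL574 and near 140 RPKM in WT, and HSP26 is the most abundant of the genes that fell.

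The 12 largest decreases included genes known from stationary phase, stress and slow growth. SPG1, a gene of stationary-phase survival, was at 2.43 and 0.92 RPKM in YBL574 and 140 and 137 RPKM in WT (-5.77 ± 0.40, adjusted p = 4.4e-05). HSP26, a small heat shock protein that binds unfolded proteins, was at 457 and 561 RPKM in YBL574 and 4613 and 5941 RPKM in WT (-3.37 ± 0.51, adjusted p = 0.00065). HSP30, a stress-induced plasma membrane protein, was at 163 and 114 RPKM in YBL574 and 1331 and 1631 RPKM in WT (-3.43 ± 0.34, adjusted p = 0.00011). Both heat shock genes were about 10-fold lower, and HSP26 was among the abundant transcripts of WT. HXT5, a hexose transporter of slowly growing cells, was at 5.88 and 7.71 RPKM in YBL574 and 71.2 and 94.4 RPKM in WT (-3.42 ± 0.29, adjusted p = 6.8e-05). TKL2, the minor transketolase, was at 5.07 and 8.49 RPKM in YBL574 and 79.4 and 77.2 RPKM in WT (-3.39 ± 0.37, adjusted p = 0.00015). MOH1, RRT1, YNL194C, YNL195C, YOR338W, DPC7 and URA1 made up the rest of the 12 and fell by 3.25 to 3.85 on the log2 scale. All 12 calls were scaling-independent and held without any single replicate. In bulk RNA, fewer cells that express a gene and less RNA of it per cell cannot be told apart.

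Heat shock protein genes fell almost as a group. Of 21 tested, 20 were lower and none was higher as deposited, against 50.4% lower among all genes, and 13 were lower under all scalings, against 13.3%. Their median log2 fold change was -1.46, against -0.38 for all genes. HSP12, a membrane-stabilising stress protein, was at 1201 and 866 RPKM in YBL574 and 5130 and 5080 RPKM in WT (-2.32 ± 0.37, adjusted p = 0.00085). HSP82, an HSP90 chaperone, was at 251 and 321 RPKM in YBL574 and 1253 and 1531 RPKM in WT (-2.28 ± 0.23, adjusted p = 0.00012). The HSP70 gene SSA3 was the exception, at 79.7 and 99.7 RPKM in YBL574 and 59.3 and 64.6 RPKM in WT, and did not pass the test (0.52 ± 0.34). In H3T11A, HSP12 was at 555 and 1288 RPKM and HSP82 at 1324 and 2188 RPKM.

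Other stress and reserve genes did not fall as a group under all scalings. Of 16 trehalose and glycogen genes, 11 fell and none rose as deposited (68.8%, against 50.4% of all genes, median -0.84), and 2 fell under all scalings (12.5%, against 13.3% of all genes), the glycogen debranching enzyme gene GDB1 and the phosphoglucomutase gene PGM2. PGM2 was at 162 and 140 RPKM in YBL574 and 539 and 601 RPKM in WT (-1.91 ± 0.42, adjusted p = 0.0041). Of 21 antioxidant genes, 3 rose and 8 fell as deposited (14.3% and 38.1%, against 6.44% and 50.4% of all genes), with a median of -0.43. Under all scalings 3 rose and 6 fell (28.6%). The glutathione peroxidase gene GPX2 was at 101 and 66.7 RPKM in YBL574 and 23.9 and 18.4 RPKM in WT (1.92 ± 0.50, adjusted p = 0.0099), a call lost in 2 of 4 fits without 1 replicate (adjusted p up to 0.070). The peroxiredoxin gene TSA1 also rose, at 914 and 842 RPKM in YBL574 and 436 and 439 RPKM in WT. Among those that fell, the cytosolic catalase gene CTT1 was at 35.4 and 40.7 RPKM in YBL574 and 167 and 189 RPKM in WT, and the peroxiredoxin gene TSA2 at 32.8 and 27.2 RPKM in YBL574 and 176 and 188 RPKM in WT. The stress response element AGGGG, searched on both strands in the 300 bases before the start codon, was present in 9 of 21 heat shock gene promoters (42.9%) and in 5 of the 12 genes with the largest decreases (41.7%), against 22.2% of 5987 promoters. The 5 include MOH1 and RRT1, neighbours on the same strand of chromosome II. MOH1 ends at 127244 and RRT1 starts at 127299, so most of the window searched for RRT1 lies within MOH1. The matches nearest the start codon of 3 heat shock genes that fell under all scalings are shown with the motif in capitals, as windows of 30 bases from R64 read along the gene.
HSP12: gttccggtcgtcCCCCTcttgatctgaaag
HSP82: tccttccgccacCCCCTaaaacatataaat
HSP104: agtaaaaggcaaAGGGGcgcaaacttatgc

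Genes for the assembly of ribosomes were lower in YBL574. Of 53 ribosome biogenesis genes (UTP, NOP and RRP genes), 52 fell and none rose as deposited, against 50.4% lower among all genes. Under all scalings 35 fell (66.0%, against 13.3%), and the median was -1.20. NOP16, an assembly factor of the large subunit, was at 14.4 and 14.1 RPKM in YBL574 and 64.2 and 50.02 RPKM in WT (-1.92 ± 0.15, adjusted p = 5.7e-05), with changes of -1.20 in the first and -3.44 in the second technical libraries. UTP5, part of the small-subunit processome, was at 34.3 and 28.6 RPKM in YBL574 and 108 and 98.1 RPKM in WT (-1.68 ± 0.22, adjusted p = 0.00032). UTP25 and UTP18 fell by 1.67 and 1.64 on the log2 scale, and the change of UTP25 was -1.31 in the first and -2.15 in the second technical libraries. With the first technical libraries alone 49 of the 53 genes fell, and with the second 52.

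Genes for the proteins of the cytosolic ribosome had a median log2 fold change of 0.31 over 138 genes, but this depended on the library. As deposited 21 rose (15.2%, against 6.44% of all genes) and none fell. With median-of-ratios scaling 87 rose and with upper-quartile scaling 108, where 1186 and 1456 of all 6505 genes did. With the first technical libraries alone none rose and 5 fell (median 0.031), and with the second 56 rose and none fell (median 0.53). RPS12 was at 1909 and 2052 RPKM in YBL574 and 1110 and 973 RPKM in WT (0.93 ± 0.25, adjusted p = 0.011), and its change was 0.48 with the first libraries, where it did not pass the test, and 1.27 with the second. The call of RPS12 was also lost in 2 of 4 fits without 1 replicate (adjusted p up to 0.067). In the first libraries the median of all genes was -0.37, and in the second -0.41.

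The PAC core GATGAG, an element known from ribosome biogenesis promoters, was found on either strand in 43 of 53 such promoters (81.1%), in 16 of 138 ribosomal protein promoters (11.6%) and in 19.1% of 5987 promoters of 300 bases. The windows of the 4 biogenesis genes with the largest decreases are given because all of them hold the motif, which is in capitals.
NOP16: agaaaaataggcGATGAGataaatttataa
UTP5: cgcagctgaagcGATGAGgtgaaaaaatta
UTP25: actataatttagCTCATCgcatattttgca
UTP18: atttcacctcatCTCATCgatcactctggt

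**Figure D4:**
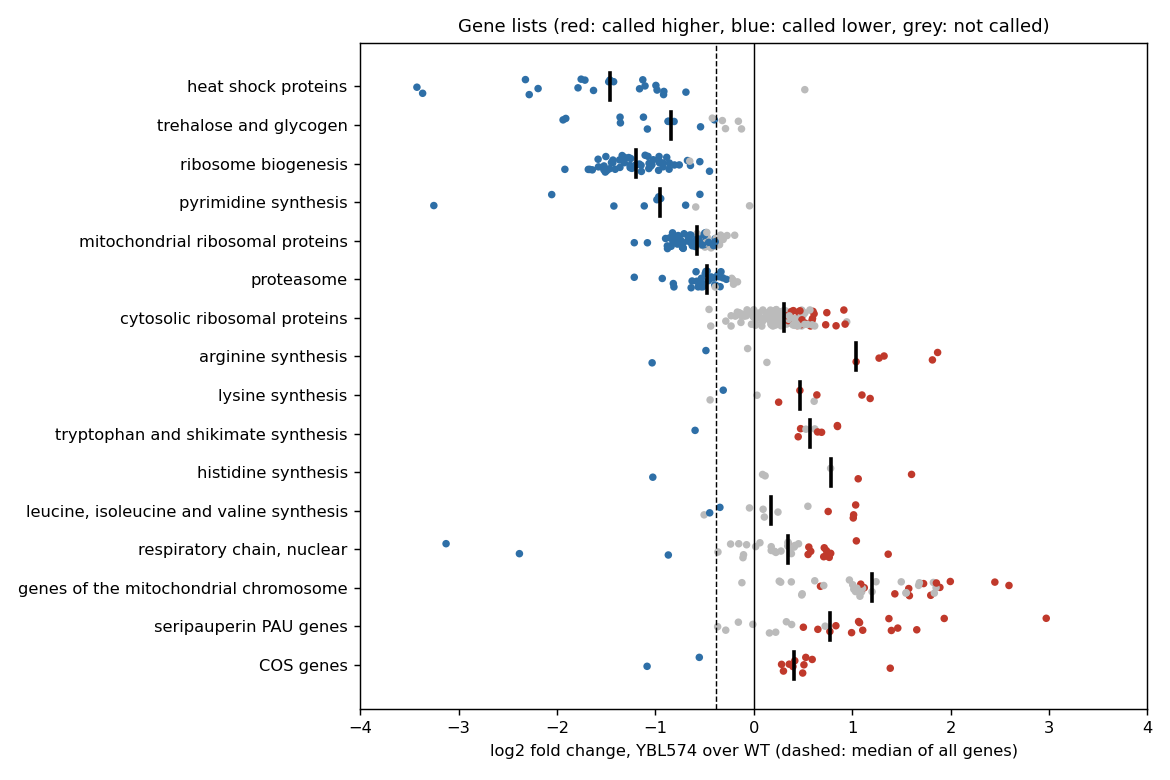
Log2 fold change of YBL574 over WT (horizontal axis) for the tested members of 16 gene lists, 1 point per gene, with the list median as a black bar, 0 as a solid line and the median of all genes (-0.38) as a dashed line. HIS3, URA3 and TRP1 lie beyond the axis, and the heat shock, ribosome biogenesis and pyrimidine lists lie left of the dashed line while the arginine list and the mitochondrial chromosome lie to the right of 0.

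Amino acid synthesis genes were higher in YBL574 in part. Over 5 lists (histidine, branched-chain, aromatic, lysine and arginine synthesis) and without the selection markers, 19 of 42 genes rose and 7 fell as deposited. All 19 rises were scaling-independent, against 6.44% of all genes, and 2 of the decreases were. The first technical libraries alone gave 19 higher and the second 23. ARG7, an acetyltransferase of ornithine synthesis, was at 227 and 211 RPKM in YBL574 and 65.9 and 57.5 RPKM in WT (1.82 ± 0.16, adjusted p = 8.2e-05). ARG1, argininosuccinate synthetase, was at 369 and 343 RPKM in YBL574 and 133 and 150 RPKM in WT (1.32 ± 0.16, adjusted p = 0.00026). In H3T11A, ARG1 was at 27.9 and 19.3 RPKM.

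The other pathways rose in part. LYS20, a homocitrate synthase of lysine synthesis, was at 160 and 144 RPKM in YBL574 and 63.7 and 68.8 RPKM in WT (1.18 ± 0.22, adjusted p = 0.0017), with changes of 0.74 in the first and 1.52 in the second technical libraries. HIS5 rose by 1.06, ILV6 (the regulatory subunit of acetolactate synthase) by 1.04, LEU4 by 1.01 and ARO4 by 0.85 on the log2 scale, all under every scaling. CPA1, a gene of arginine synthesis, and HIS6 were the 2 genes that fell under all scalings, and HIS6 missed the threshold with the first technical libraries alone (-0.41, against -2.12 with the second). HIS6 was at 5.37 and 4.59 RPKM in YBL574 and 11.3 and 11.02 RPKM in WT. The permease and sulfur lists gave fewer calls. Under all scalings, 20 amino acid permeases gave 1 rise (5%) and 1 decrease (5%), and 24 methionine genes 2 rises (8.33%) and 2 decreases (8.33%). Among all genes 6.44% rose and 13.3% fell.

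Gcn4, the activator of amino acid synthesis genes, binds TGACTC, and this motif was searched on both strands in the 300 bases before the start codon. It was present in 15 of the 19 genes that rose under all scalings (78.9%), in 12 of the 23 other genes of these lists (52.2%) and in 7.77% of 5987 promoters. GCN4 itself, a gene named with its values already known, had 694 and 722 RPKM in YBL574 and 765 and 758 RPKM in WT and did not pass the test (-0.10 ± 0.15). Its control is known to act mostly on translation, which RNA levels do not show. The windows of HIS4 and of 6 risen genes are printed with the motif in capitals (GAGTCA is its reverse complement). All are reference sequence. The strain list names an insertion at HIS4 in the YBL wild type, and whether YBL574 holds the HIS4 window as printed was not tested.
HIS4: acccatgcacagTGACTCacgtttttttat
HIS5: tcttggatctgtTGACTCacttcaattgat
ARG1: tgccgtatggaaGAGTCAtttaaaggcagg
ARG4: ttagtagatgaaTGACTCactttttggata
TRP3: tcaatggctcgtTGACTCattctaatctat
ILV6: tcaccgttatcgTGACTCactttctttcgc
LEU4: cttacgtgtaagTGACTCagttctttcaaa

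Most genes of pyrimidine synthesis other than URA3 were lower in YBL574. Of 12 genes, 9 fell and the selection marker URA3 alone rose as deposited, against 50.4% lower among all genes. Under all scalings 5 fell (URA1, URA2, URA4, URA10 and PPR1), which is 41.7%, against 13.3% of all genes. URA1, dihydroorotate dehydrogenase, was at 62.0 and 68.4 RPKM in YBL574 and 673 and 589 RPKM in WT (-3.25 ± 0.13, adjusted p = 1.6e-06). H3T11A had URA1 at 724 and 749 RPKM, above both YBL574 replicates. URA4, dihydroorotase, was at 50.5 and 47.1 RPKM in YBL574 and 133 and 132 RPKM in WT (-1.42 ± 0.13, adjusted p = 8.2e-05). URA10, the minor orotate phosphoribosyltransferase, was at 15.1 and 12.9 RPKM in YBL574 and 59.0 and 63.4 RPKM in WT. PPR1, the activator of URA1, URA3 and URA4, was at 8.78 and 8.71 RPKM in YBL574 and 18.4 and 17.2 RPKM in WT (-0.95 ± 0.10, adjusted p = 0.00016).

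The Ppr1 motif (CGG and CCG spaced by 6 bases, a sequence that reads alike on both strands) was present within 300 bases of 3 of the 12 genes, URA1, URA3 and URA4, and in 1.29% of 5987 promoters. URA1 holds it at 2 places. The windows nearest the start codon are shown for these 3 genes, with the CGG and CCG ends in capitals. URA1 and URA4 fell. URA3 is a selection marker with 1 and 2 reads in the WT libraries, so its rise cannot be set beside their decreases.
URA1: cacgatcttCGGcattcgCCGaaaattttt
URA4: ttcatcattCGGagaattCCGatgaatcgg
URA3: tttttgattCGGtaatctCCGagcagaagg

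Genes of mitochondrial functions gave calls in both directions. VAR1, a ribosomal protein, and the cytochrome oxidase subunits COX2 and COX3 rose among 8 protein genes of the mitochondrial chromosome (37.5%, against 6.44% of all genes). COX2 was at 1322 and 1592 RPKM in YBL574 and 687 and 644 RPKM in WT (1.12 ± 0.16, adjusted p = 0.00049), with changes of 0.73 in the first and 1.43 in the second technical libraries. The call of COX3 (0.68 ± 0.24, adjusted p = 0.038) was lost when any 1 of the 4 replicates was left out (adjusted p up to 0.175), and with the first libraries alone (0.45, against 0.88 with the second). COX1 was at 2946 and 3614 RPKM in YBL574 and 1666 and 1381 RPKM in WT and did not pass the test (1.10 ± 2.17), although its replicates did not overlap. The spread in the test is shared with the other groups, and the mitochondrial share of the CK2 libraries was 0.281% and 3.71%. Fitted with the YBL574 and WT samples alone, all 8 genes rose, and 31 of the 39 genes of that chromosome. Of 36 nuclear genes of the respiratory chain and ATP synthase, 12 rose (33.3%) and 2 fell (5.56%) under all scalings (median 0.35). The shares of all genes were 6.44% and 13.3%. The 2 that fell were CYC7, the low-oxygen form of cytochrome c, at 38.2 and 44.1 RPKM in YBL574 and 376 and 358 RPKM in WT, and the NADH dehydrogenase NDE2, at 3.64 and 4.75 RPKM in YBL574 and 25.6 and 26.3 RPKM in WT. Their paralogs were higher, CYC1 with 107 and 144 RPKM in YBL574 and 47.0 and 48.1 RPKM in WT (1.37 ± 0.42, adjusted p = 0.020), and NDE1 with 239 and 243 RPKM in YBL574 and 120 and 113 RPKM in WT (1.04 ± 0.32, adjusted p = 0.022). The calls of CYC1 and NDE1 were lost without 1 replicate, with an adjusted p of up to 0.11 for CYC1 and 0.091 for NDE1.

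Mitochondrial ribosomal protein genes of the nucleus gave 48 decreases and no rise among 67 as deposited (71.6%, against 50.4% of all genes, median -0.58). Under all scalings 7 fell (10.4%), a share below the 13.3% of all genes. In the TCA and retrograde list of 27 genes, 4 rose with the first technical libraries alone and 9 with the second. Under all scalings 7 rose (25.9%) and 1 fell (3.7%), against 6.44% and 13.3% of all genes. The exception was MDH2, the cytosolic malate dehydrogenase of gluconeogenesis, at 23.4 and 26.9 RPKM in YBL574 and 145 and 132 RPKM in WT (-2.42 ± 0.17, adjusted p = 4.4e-05). IDP1, a mitochondrial isocitrate dehydrogenase, was at 322 and 343 RPKM in YBL574 and 157 and 147 RPKM in WT (1.13 ± 0.21, adjusted p = 0.0019). Most glycolytic genes did not pass the test, 17 of 22 as deposited, although 10 rose with the second technical libraries and 2 with the first. CDC19 (pyruvate kinase) was at 4254 and 3686 RPKM in YBL574 and 3970 and 4006 RPKM in WT (-0.010 ± 0.23). The hexokinase gene HXK1 fell, at 620 and 588 RPKM in YBL574 and 1375 and 1462 RPKM in WT (-1.23 ± 0.18, adjusted p = 0.00061).

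Metal and phosphate uptake genes gave calls in both directions. In the iron list and in the phosphate list, each of 20 genes, 2 rose (10%) and 8 fell (40%) as deposited. Among all genes 6.44% rose and 50.4% fell as deposited. FRE1, a plasma membrane iron and copper reductase, was at 115 and 121 RPKM in YBL574 and 36.2 and 28.2 RPKM in WT (1.85 ± 0.67, adjusted p = 0.040), a call lost when any 1 of the 4 replicates was left out. The cell wall mannoproteins FIT2 and FIT3, which hold iron-carrying siderophores, were lower. FIT3 was at 76.5 and 57.5 RPKM in YBL574 and 220 and 411 RPKM in WT (-2.17 ± 0.29, adjusted p = 0.00037). Of 20 iron genes, 2 rose (10%) and 4 fell (20%) under all scalings, and of 20 phosphate genes, 2 rose (10%) and 2 fell (10%). Among all genes 6.44% rose and 13.3% fell under all scalings.

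Genes near chromosome ends are subject to silencing by the SIR complex in yeast. On the values as deposited, the median shift was smaller there, but not after scaling. Of 226 tested genes within 20 kb of an end, 58 rose (25.7%) and 11 fell (4.87%) under all scalings, against 6.44% and 13.3% of all genes. As deposited 58 rose and 44 fell (19.5%, against 50.4% of all genes). Their median log2 fold change as deposited was 0.027, against -0.38 for all genes. It was 0.41 against 0.0028 with median-of-ratios scaling, and 0.48 against 0.087 with upper-quartile scaling. By distance, the median as deposited was 0.17 for 46 genes within 5 kb and 0.18 for 62 genes at 5 to 10 kb. It was -0.066 for 118 genes at 10 to 20 kb and -0.36 for 274 genes at 20 to 40 kb. It was -0.42 for 4820 genes beyond 80 kb. Many of these genes have low levels, and the eighth of genes with the lowest WT levels had a median of 0.056 wherever they lie. The part of low level in the trend with distance was not tested. Among the 58 rises were DDI2, DDI3, PAU1, PAU20 and HXT9, which passed the filter only through YBL574. Genes of this kind enter through the strain where they are high, and their full number among the 58 was not counted.

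**Figure D5:**
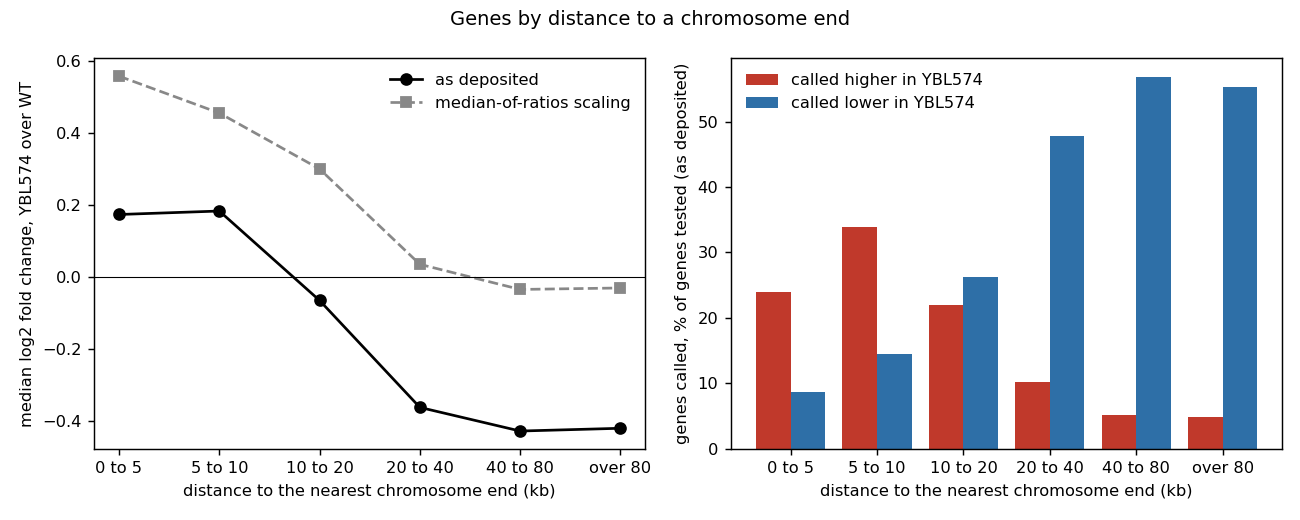
Median log2 fold change of YBL574 over WT (left, black as deposited and grey after median-of-ratios scaling) and the percentage of tested genes that were higher (red) or lower (blue) at an adjusted p under 0.05 (right), by distance in kb to the nearest chromosome end. The median as deposited is 0.17 within 5 kb and -0.42 beyond 80 kb.

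Of the PAU and COS families, most tested members lie within 20 kb of an end. Of 23 tested PAU genes, which encode seripauperin mannoproteins, 14 rose (60.9%, against 6.44% of all genes) and none fell under all scalings. Those that rose were 11 of the 18 within 20 kb and 3 of the 5 elsewhere. PAU1, at 3.19 and 4.07 RPKM in YBL574 and 0.45 and 0 RPKM in WT, and PAU20 were among them and passed the filter only through YBL574. PAU5, which lies 99.2 kb from an end, was at 29.6 and 32.7 RPKM in YBL574 and 8.02 and 10.5 RPKM in WT (1.66 ± 0.19, adjusted p = 0.00019). Of 12 COS genes, which encode membrane proteins that promote endosomal sorting, 10 rose and 2 fell as deposited. Under all scalings 10 rose (83.3%) and 1 fell (8.33%), against 6.44% and 13.3% of all genes. With the first technical libraries alone 5 rose and 1 fell, and with the second 10 rose and 2 fell. COS1 was at 48.1 and 52.3 RPKM in YBL574 and 33.0 and 32.9 RPKM in WT (0.59 ± 0.12, adjusted p = 0.0024), whereas COS111, which lies 181 kb from an end, was at 21.3 and 20.1 RPKM in YBL574 and 40.6 and 49.98 RPKM in WT (-1.09 ± 0.14, adjusted p = 0.00028). COS10, 3.29 kb from an end, also fell as deposited (-0.55 ± 0.18, adjusted p = 0.024), with 16.2 and 13.5 RPKM in YBL574 and 25.3 and 19.4 RPKM in WT, a call lost under the other scalings. The call was also lost with the first technical libraries alone (-0.54, against -0.58 with the second). Members of both families are near-identical, and reads can be shared among them. CHA1, the serine and threonine deaminase, lies within 20 kb of an end of chromosome III and fell, with 54.6 and 87.0 RPKM in YBL574 and 334 and 408 RPKM in WT (-2.40 ± 0.34, adjusted p = 0.00046). The 8 SIR and sirtuin genes had a median of -0.56. SIR2 was at 19.4 and 15.2 RPKM in YBL574 and 30.7 and 30.1 RPKM in WT (-0.79 ± 0.13, adjusted p = 0.00086), and none of the 8 had a scaling-independent call.

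Several lists whose members fell on the values as deposited lost most calls or turned with the scaling, and the shares to set them against are 50.4% of all genes lower as deposited and 13.3% lower under all scalings. Of 33 proteasome genes, 28 fell as deposited (84.8%) and 4 under all scalings (12.1%), and with upper-quartile scaling 2 rose. The 4 included RPN4, the activator of proteasome genes, at 52.4 and 49.5 RPKM in YBL574 and 120 and 119 RPKM in WT (-1.22 ± 0.13, adjusted p = 0.00015). Of 37 autophagy ATG genes, 25 fell (67.6%) and 2 rose as deposited, and 7 fell (18.9%) and 2 rose under all scalings. ATG8, the ubiquitin-like protein of the autophagosome membrane, was at 22.5 and 23.5 RPKM in YBL574 and 49.7 and 62.2 RPKM in WT (-1.24 ± 0.26, adjusted p = 0.0032), a call that did not hold under all scalings. Of 21 histone chaperone and regulator genes, 16 fell as deposited (76.2%) and 3 under all scalings (14.3%), among them the HMGB-type nonhistone protein gene NHP6B, at 48.1 and 88.4 RPKM in YBL574 and 166 and 167 RPKM in WT. All 4 casein kinase 2 subunit genes were lower as deposited (-1.09 to -0.59), and CKA1 and CKA2 stayed lower under all scalings. The change of CKA1 was -0.56 with the first technical libraries and -1.94 with the second.

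The remaining lists gave calls in both directions, of which those independent of scaling are counted here, against 6.44% of all genes higher and 13.3% lower. Among 15 tested hexose transporters and sensors 4 rose and 1 fell, and HXT4 was at 479 and 472 RPKM in YBL574 and 228 and 245 RPKM in WT (1.00 ± 0.16, adjusted p = 0.00096). Among 14 purine genes 2 rose and 1 fell, and IMD2, an IMP dehydrogenase gene, was at 94.6 and 84.4 RPKM in YBL574 and 25.6 and 22.8 RPKM in WT (1.84 ± 0.19, adjusted p = 0.00013). HXT4 and IMD2 had replicates that did not overlap. HXT9 and HXT11, among the 4 hexose transporters that rose, passed the filter only through YBL574. Among 7 asparagine genes 3 rose and none fell, with the asparagine synthetase ASN2 at 293 and 300 RPKM in YBL574 and 170 and 161 RPKM in WT (0.84 ± 0.08, adjusted p = 0.00011). Of 15 flocculin and cell surface genes 7 rose and none fell, but on the values as deposited 3 rose and 3 fell with the first technical libraries alone, and 10 rose and 1 fell with the second. The agglutinin anchor gene AGA1, which the mating list also holds, was at 22.5 and 24.0 RPKM in YBL574 and 6.49 and 8.18 RPKM in WT (1.55 ± 0.19, adjusted p = 0.00027), with changes of 0.92 in the first and 1.98 in the second technical libraries. Among 24 nitrogen catabolite genes none rose and 5 fell, among 24 ergosterol genes 2 rose and 1 fell, and among 19 serine, glycine and one-carbon genes 2 rose and 1 fell. The ergosterol gene that fell was IDI1, isopentenyl diphosphate isomerase, at 96.6 and 99.0 RPKM in YBL574 and 219 and 205 RPKM in WT (-1.11 ± 0.10, adjusted p = 7.7e-05). Among 13 cyclin genes with SIC1 none rose and 1 fell (PCL2), among 7 galactose genes none had such a call (3 fell as deposited), and among 7 copper and sodium genes CUP2 fell. Among 16 shared pheromone response genes 2 rose (AGA1 and PRM1) and none fell, while 8 of the 16 fell as deposited, near the 50.4% of all genes. The call of PRM1 (0.83 ± 0.32, adjusted p = 0.0496) was lost when any 1 of the 4 replicates was left out (adjusted p up to 0.244), and with the second technical libraries alone (0.80, against 0.85 with the first).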

How the data were processed

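The 16 RNA-seq libraries of 12 yeast samples were given as 1 table. The authors deposited RPKM values for 7125 genes per library, and the submitters' processing notes name CASAVA 1.8.2, TopHat2 2.0.13 and the sacCer3 build. Strand use and the treatment of shared reads are not given in the sources used here. Gene names and coordinates came from RefSeq R64, to which 6162 identifiers (86.5%) matched.

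The read total of each library was fitted so that RPKM times gene length gave whole reads. In the 6 libraries, 99.8% to 99.9% of low values (up to 100 reads) came within 0.1 of a whole number. Technical libraries were averaged. Values were taken as log2(RPKM + 1), so fold changes of low genes are understated, and genes with RPKM of at least 1 in at least 2 of the 4 replicates were kept. Limma version 3.58.1 in R version 4.3.3 (trend, all 6 groups sharing 1 spread with 6 residual degrees of freedom, contrast YBL574 minus WT) gave two-sided p-values, adjusted by Benjamini-Hochberg over 6505 genes with a threshold of 0.05. Tested on simulated data for this contrast, 69% of genes changed by 2-fold and 95% of those changed by 4-fold were recovered, and 4.65% of the calls were false. The simulation changed 200 of 6505 genes, equally up and down, with no shift of all genes. The data had such a shift and far more calls, so these shares need not hold for them. Values after ± are SE for log2 fold changes.

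Named genes were all histone and marker genes, their neighbours, the 12 highest and 12 lowest genes that passed the test with non-overlapping replicates and a mean RPKM of at least 5 in 1 strain, and up to 4 genes per list, with the exceptions said in the text. A gene counted within the lists is not reported by name here. The members, the lists and the comparison were chosen with earlier results of these data known. Alternatives were 2 pseudocounts, 3 filters, 2 scalings, a fit of both groups alone, a weighted fit of recovered reads, a replicate block, each technical library alone and leaving out each replicate. Calls under all 3 scalings were counted as an alternative chosen after seeing the data.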

Additional observations from a re-analysis of the deposited data

How the results depend on the processing

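Scaling had the largest effect. The count of genes past the threshold was 3697 as deposited, 2405 with median-of-ratios scaling and 2324 with upper-quartile scaling. Genes higher in YBL574 numbered 419, 1186 and 1456 in that order, and genes lower 3278, 1219 and 868. Changes of at least 2-fold were 291 higher and 293 lower with median-of-ratios scaling, and 360 higher and 236 lower with upper-quartile scaling. The share of higher calls was 11.3% as deposited, 49.3% and 62.7%. Counting only calls under all 3 scalings, an alternative chosen after seeing the data, left 868 lower. Changes of at least 2-fold that were higher numbered 103 with a filter at RPKM 5 and 74 with a pseudocount of 5, which by construction shrinks low genes. Leaving out each replicate gave 2816 to 2915 genes in all, 265 to 283 higher (265 without WT replicate 3), 2533 to 2633 lower, and 119 to 156 higher and 675 to 709 lower by at least 2-fold. Of 196 named genes past the threshold, 42 lost the call without 1 replicate and none changed direction.

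With the replicate number as a replicate block, 645 genes were higher, 3852 lower and 4497 in all. Same-numbered samples did not deviate together (Spearman's rho 0.0092 over 6505 genes), so the numbers were not taken as pairs. Under the block no named gene lost its call. Directions turned with upper-quartile scaling for HTZ1 (0.45), FLR1 (0.14), SIW14 (0.19), MRM1 (0.043), DED1 (0.29), NFS1 (0.25), BIK1 (0.13), AFI1 (0.11) and MATALPHA2 (0.041), with median-of-ratios scaling for FLR1 (0.060), SIW14 (0.11), NFS1 (0.17), BIK1 (0.048) and AFI1 (0.030), and with the first technical libraries for YLR154W-B (-0.93). The cause was not tested. The RPKM table limits low genes, since 3 reads in a gene of 1 kb are 0.17 to 0.25 RPKM.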
